A study of Canis lupus familiaris with 6 samples.

Results

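Galectins are described here in HU-HSA-2, a line of dog cells from hemangiosarcoma, a cancer of vessel-lining cells. The members are the genes LGALS1, LGALS3, LGALS3BP, LGALS8 and LGALS9, found by their symbols, and 4 of the 5 matched a row among the 20500 rows of the deposited matrix. LGALS3BP matched no row name and is not analysed here. The family was selected on values of this same comparison, in which LGALS3 was known to be higher after treatment, so the members' differences are given as a description with no test. The labels give 3 libraries of polyA RNA from cells kept with (R)-GNE-140 and 3 control libraries, with DMSO as the vehicle and 72 hours of exposure. (R)-GNE-140 is a small-molecule inhibitor of lactate dehydrogenase, which turns pyruvate into lactate and back. Every library comes from the same 1 cell line, its dose is not stated in the labels, and separate cultures are not stated. In that case the spread between libraries, and any p-value built on it, may be technical.

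Galectins are lectins that bind galactose-containing sugar chains, above all N-acetyllactosamine (LacNAc), on glycoproteins and glycolipids. They are made in the cytosol without a signal peptide, reach the cell surface and the matrix by an unconventional route, and there cross-link glycoproteins into lattices. Inside the cell some of them mark membranes whose inner sugar coat has been exposed by damage. In blood vessels and tumours the family is known for roles in endothelial adhesion, vessel growth and the restraint of T cells.

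The values are TPM, a relative transcript abundance with a fixed total per library, which are scaled for transcript length, so that levels can be compared between genes as well as between libraries. LGALS1 was by far the most abundant galectin, at rank 30 of the 20500 rows by mean TPM. LGALS8 followed at rank 1935, LGALS3 at rank 5999 and LGALS9 at rank 10105. LGALS1 made up 97.4% to 97.5% of the summed TPM of the galectin rows in (R)-GNE-140 libraries and 97.6% to 97.9% in control libraries. In both groups the levels ran LGALS1, LGALS8, LGALS3, then the galectin-related gene LGALSL, then LGALS9 and LGALS4. The library ranges of neighbours in that order did not overlap within a group, except those of LGALS9 and LGALS4 in controls.

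**Figure D1:**
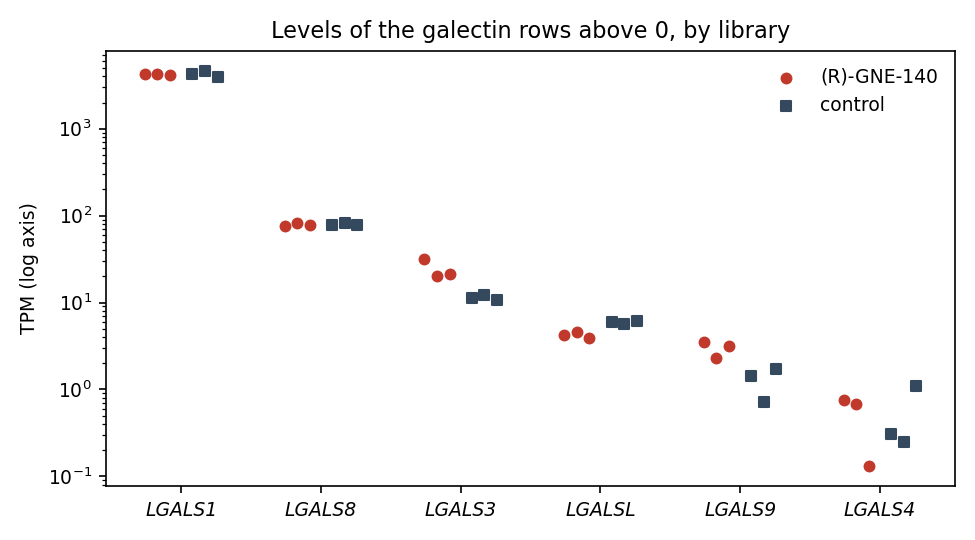
TPM of each galectin row above 0 in each library, on a log axis, with (R)-GNE-140 libraries as circles and control libraries as squares. LGALS1 averages 4269 TPM over the 6 libraries and LGALS8 78.3 TPM, and LGALS3 and LGALS9 are higher in the (R)-GNE-140 libraries.

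LGALS3 (ENSCAFG00845015017) encodes galectin-3, which has 1 sugar-binding domain behind a flexible proline- and glycine-rich tail and can gather into larger assemblies through that tail. LGALS3 stood at 31.75, 20.29 and 21.44 TPM in (R)-GNE-140 replicates 1, 2 and 3, against 11.27, 12.25 and 10.72 TPM in control replicates 1, 2 and 3. All treated libraries lay above all controls, and treated replicate 1 lay well above the other treated replicates. The means were 24.5 ± 6.31 TPM in (R)-GNE-140 libraries and 11.4 ± 0.775 TPM in controls (SD, n = 3 each), a ratio of 2.15. On the log2(TPM + 1) scale used for every difference below, which understates the change of low genes, LGALS3 was higher by 1.01 (SE 0.15). By the size of that difference LGALS3 was at rank 51 of 10874 genes tested. Without (R)-GNE-140 replicate 1 the log2 difference was 0.82, the lowest value with any library left out.

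LGALS9 (ENSCAFG00845014596) encodes galectin-9, which carries a pair of different sugar-binding domains joined by a linker and is known in human and mouse as a ligand of the T cell receptor TIM-3. LGALS9 stood at 3.47, 2.32 and 3.13 TPM in (R)-GNE-140 replicates 1, 2 and 3, against 1.43, 0.71 and 1.71 TPM in the controls. The groups did not overlap, but the level was low in both, and control replicate 2 was below the other controls. The means were 2.97 ± 0.591 TPM after (R)-GNE-140 and 1.28 ± 0.516 TPM in controls (SD, n = 3 each), a ratio of 2.32 and a log2 difference of 0.81 (SE 0.20). The size of the log2 difference depended on the pseudocount: it was 1.21 on log2(TPM + 0.1) and 0.34 on log2(TPM + 5). How many reads stand behind a value of 1 or 2 TPM is unknown, since TPM keeps no depth.

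LGALS1 (ENSCAFG00845005881) encodes galectin-1, a small galectin that acts as a dimer of identical subunits and is known in tumour endothelium for promoting vessel growth. LGALS1 stood at 4270.07, 4288.18 and 4112.98 TPM in (R)-GNE-140 libraries, against 4275.32, 4676.51 and 3992.19 TPM in controls. The treated values fell inside the range of the controls, whose spread was the wider of the groups. The means were 4224 ± 96.35 TPM after (R)-GNE-140 and 4315 ± 344 TPM in controls (SD, n = 3 each), with a log2 difference of -0.03 (SE 0.06). Leaving out 1 library moved that difference between -0.08 and 0.03, so its sign is not fixed.

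LGALS8 (ENSCAFG00845002813) encodes galectin-8, another galectin with a pair of sugar-binding domains, which in human cells binds damaged vesicles and recruits the autophagy receptor CALCOCO2. LGALS8 stood at 75.34, 81.21 and 77.73 TPM in (R)-GNE-140 libraries, against 77.05, 81.32 and 77.29 TPM in controls, so that the groups overlapped almost completely. The means were 78.1 ± 2.95 TPM after (R)-GNE-140 and 78.6 ± 2.399 TPM in controls (SD, n = 3 each). The log2 difference was -0.01 (SE 0.05), and its sign turned under quantile normalization (0.01) and without the 20 most abundant genes (0.003), and it ran from -0.04 to 0.02 with 1 library left out.

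**Figure D2:**
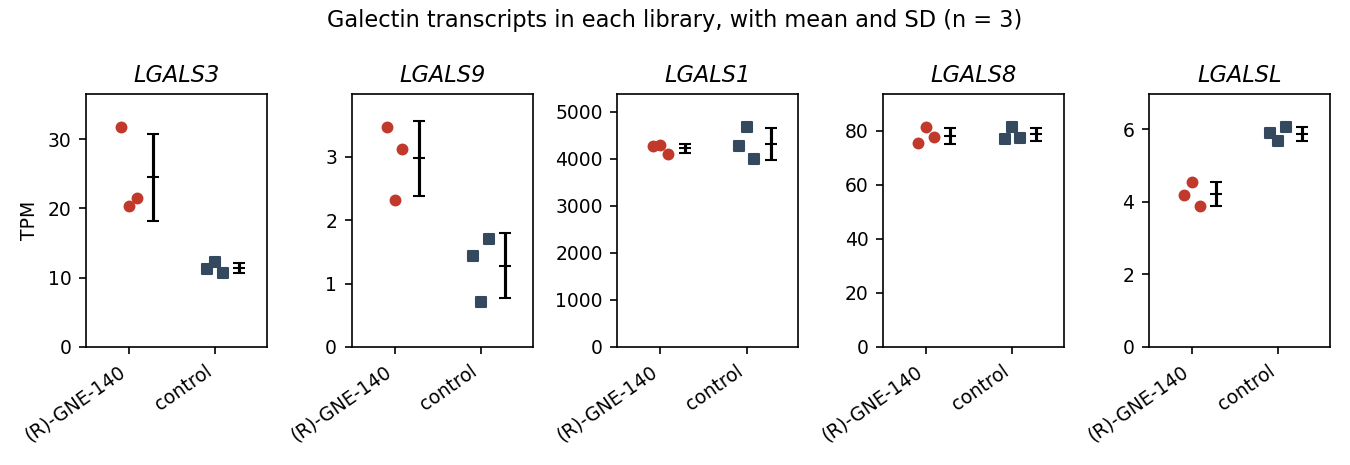
TPM of LGALS3, LGALS9, LGALS1, LGALS8 and LGALSL in each (R)-GNE-140 and control library, on linear axes from 0, with the mean and SD of 3 libraries beside each group. The groups are apart for LGALS3, LGALS9 and LGALSL and overlap for LGALS1 and LGALS8.

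The balance between galectins differed with LGALS3. The ratio of LGALS1 to LGALS3 TPM was 134, 211 and 192 in (R)-GNE-140 replicates 1, 2 and 3, against 379, 382 and 372 in control replicates 1, 2 and 3. The ratio of LGALS8 to LGALS3 was 2.37, 4.002 and 3.63 in treated libraries and 6.84, 6.64 and 7.21 in controls. These ratios rest on the same LGALS3 values as above and are no separate measurement. In bulk RNA a higher share of cells with LGALS3 transcript and more of it per cell cannot be told apart.

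All 4 matched members passed the filter of a mean of at least 1 TPM over the 6 libraries, and LGALS9 had a mean above 1 in each group. In the fit over all 10874 genes, 3.03% were past a limma adjusted p of 0.05 (Benjamini-Hochberg), 1.31% higher and 1.72% lower after (R)-GNE-140. LGALS3 was the 1 member among them. The groups did not overlap in 23.1% of genes tested, with treated higher in 11.2% and treated lower in 11.8%, and did not overlap in 2 of the 4 members. Because the members were picked with these values in view, nothing is read from either count.

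Of 13 other galectin-family symbols, 5 matched a row. LGALS2, LGALS12 and GRIFIN, a galectin-like lens protein gene, were listed at 0 in all 6 libraries. LGALS4, a galectin best known from the gut epithelium, was at 0.76, 0.68 and 0.13 TPM in (R)-GNE-140 libraries and 0.31, 0.25 and 1.10 TPM in controls, overlapping and under the filter. LGALSL (ENSCAFG00845020462), a galectin-related gene whose human product lacks lactose binding, was at 4.2, 4.55 and 3.88 TPM in (R)-GNE-140 libraries, against 5.90, 5.67 and 6.06 TPM in controls. The LGALSL groups did not overlap, and treated libraries averaged 4.21 ± 0.335 TPM and controls 5.88 ± 0.196 TPM (SD, n = 3 each). The log2 difference of -0.40 (SE 0.10) missed the threshold (limma adjusted p = 0.0677). It passed without the variance trend (limma adjusted p = 0.0465) and ranged from 0.0465 to 0.184 over all alternatives.

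The genes with the most similar course over the 6 libraries were found by the root-mean-square difference between log2 deviations from each gene's own mean, among genes with a symbol and a mean of at least 5 TPM. Libraries of opposite groups dominate such a measure, so it describes the same contrast again, and no test was made of it. Nearest to LGALS3 was the pair LOC119868937 and LOC100685649, at 0.12 log2 units, whose values were identical in all 6 libraries and count as 1 measurement. BAIAP2L1, an adaptor that bends membranes at actin-rich sites, CYP1A1, a cytochrome that metabolises xenobiotics, and HSPB1, a small heat shock protein, followed at 0.14 log2 units each. BAIAP2L1 averaged 9.11 ± 0.800 TPM after (R)-GNE-140 and 4.16 ± 0.519 TPM in controls, and HSPB1 averaged 104 ± 10.2 TPM after (R)-GNE-140 and 49.2 ± 4.37 TPM in controls (SD, n = 3 each). In all of these genes, as in LGALS3, treated replicate 1 was the highest library.

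Nearest to LGALS9 were ANXA8L1, an annexin gene, at 0.09 log2 units, VGF, a secreted neuropeptide precursor, at 0.15, and KLF11, a zinc finger transcription factor, at 0.17. GAMT, which makes creatine, and TXNIP, which restrains glucose uptake, followed at 0.18 and 0.19. ANXA8L1 stood at 11.78, 8.36 and 9.75 TPM in (R)-GNE-140 libraries, against 4.79, 3.83 and 6.55 TPM in controls. In all 5 genes, as in LGALS9, control replicate 2 was the lowest library and treated replicate 1 the highest.

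**Figure D3:**
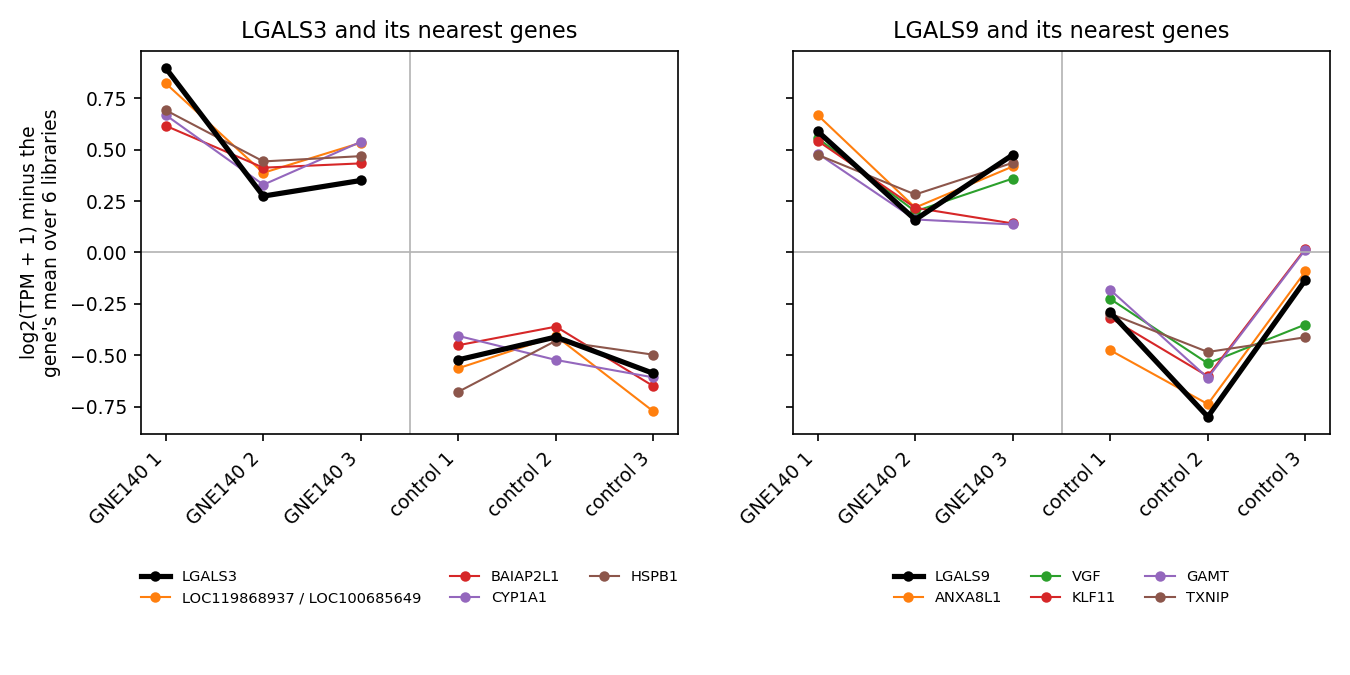
Deviation of log2(TPM + 1) from the gene's own mean over 6 libraries, for LGALS3 (left, thick line) and LGALS9 (right, thick line) with their 5 nearest genes each. Points are single libraries, lines only join the points of a gene within a group, and each curve is above 0 in all (R)-GNE-140 libraries. In controls the curves are below 0, apart from KLF11 and GAMT in control replicate 3.

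Genes known to work with galectins were then counted from lists, beside the shares of all genes given above and a median log2 difference of 0.004 over all genes tested. Surface and matrix glycoproteins that galectins bind moved in both directions. Of 23 tested, 1 rose, 3 fell and 19 did not pass, with a median log2 difference of -0.06, and 8 had an unadjusted limma p under 0.05 against 17.9% of all genes. SLC3A2 (ENSCAFG00845007354), the heavy chain of the amino acid transporter CD98 and a partner of galectin-3, rose to 79.9 ± 3.14 TPM after (R)-GNE-140, against 57.2 ± 4.70 TPM in controls (SD, n = 3 each). Its log2 difference was 0.48 (SE 0.07, limma adjusted p = 0.00992).

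The other 3 called ligands were lower. BSG (ENSCAFG00845015138), or CD147, a chaperone of lactate transporters that galectin-3 binds in human epithelium, averaged 246 ± 9.14 TPM after (R)-GNE-140 and 297 ± 14.9 TPM in controls (log2 difference -0.27, limma adjusted p = 0.0279). ITGB1, the beta-1 integrin chain bound by several galectins, averaged 505 ± 13.95 TPM after (R)-GNE-140 and 584 ± 18.1 TPM in controls (log2 difference -0.21, limma adjusted p = 0.0378). P4HB, a protein disulfide isomerase that galectin-9 binds on mouse T cells, averaged 418 ± 17.8 TPM after (R)-GNE-140 and 494 ± 25.0 TPM in controls (log2 difference -0.24, limma adjusted p = 0.0425). With 1 library left out the log2 differences stayed within 0.42 to 0.53 for SLC3A2, -0.31 to -0.24 for BSG, -0.23 to -0.19 for ITGB1 and -0.28 to -0.20 for P4HB, while calls over all genes fell to between 74 and 185, against 329 with all 6 libraries. In these smaller fits SLC3A2 lost its call only without (R)-GNE-140 replicate 3 (limma adjusted p = 0.0517). BSG kept its call only without control replicate 2 or (R)-GNE-140 replicate 1, P4HB only without control replicate 2, and ITGB1 in none of the 6 fits.

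Partners of galectins at damaged lysosomes and in autophagy included 3 genes that rose. Of 30 tested, 3 rose, 0 fell and 27 did not pass, and the median log2 difference was 0.02. An unadjusted limma p under 0.05 was found for 6 of the 30, against 17.9% of all genes. The groups did not overlap in 8 genes higher after (R)-GNE-140 and 1 lower, against 11.2% and 11.8% of all genes. SQSTM1 (ENSCAFG00845007599), the autophagy receptor p62, averaged 472 ± 38.5 TPM after (R)-GNE-140 and 386 ± 16.6 TPM in controls (log2 difference 0.29, limma adjusted p = 0.0422). NBR1, a related receptor, averaged 40.1 ± 1.66 TPM after (R)-GNE-140 and 33.3 ± 0.853 TPM in controls (log2 difference 0.26, limma adjusted p = 0.0480). CHMP2A, a subunit of the ESCRT membrane repair machinery, averaged 88.0 ± 3.05 TPM after (R)-GNE-140 and 75.0 ± 2.06 TPM in controls (log2 difference 0.23, limma adjusted p = 0.0480). Each of the 3 missed the threshold in all 6 fits with 1 library left out, while the log2 differences stayed within 0.23 to 0.34 for SQSTM1, 0.23 to 0.29 for NBR1 and 0.21 to 0.26 for CHMP2A. The receptor OPTN was at a log2 difference of 0.34 and did not pass (limma adjusted p = 0.0617). It passed at a mean of at least 5 TPM (limma adjusted p = 0.0481), under median-of-ratios (0.0320) and quantile scaling (0.0294) and without the 20 most abundant genes (0.0457), and ranged from 0.0294 to 0.182 over all alternatives. Calls over all genes also rose in the settings where OPTN passed, from 329 to 352, 440, 416 and 375. TRIM16, which works with galectin-3 in human cells, was at 8.56 to 10.32 TPM after (R)-GNE-140 and 10.64 to 11.03 TPM in controls, likewise not past the threshold.

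Genes for building LacNAc and other galactose-containing sugar chains had no call. Of 21 tested, 0 rose and 0 fell by limma over all genes, and 2 had an unadjusted limma p under 0.05, against 17.9% of all genes. Their median log2 difference was -0.10, with 14 of 21 below 0 against 48.9% of all genes. The groups did not overlap in 7 genes lower after (R)-GNE-140 and in 0 higher, against 11.8% and 11.2% of all genes. SLC35A3, a Golgi carrier of UDP-N-acetylglucosamine, averaged 17.5 ± 1.11 TPM after (R)-GNE-140 and 21.0 ± 1.53 TPM in controls (log2 difference -0.25, limma adjusted p = 0.131). MAN1A2, a Golgi mannosidase that trims N-glycans before branching, was at a log2 difference of -0.20. C1GALT1C1, the chaperone of the core 1 O-glycan galactosyltransferase, was at -0.15, and the galactosyltransferase B4GALT6 at -0.16. MGAT5, the branching enzyme whose products galectin-3 favours, was at 4.75, 3.16 and 4.5 TPM after (R)-GNE-140 and 5.27, 4.79 and 5.09 TPM in controls. MGAT5 was named for that role after its values were seen, as TRIM16 was, and did not pass (limma adjusted p = 0.388).

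Sialic acid and fucose can cap these chains, and alpha-2,6-linked sialic acid hides them from galectin-1. Of 17 capping and uncapping genes tested, 0 rose and 0 fell by limma over all genes, and the median log2 difference was -0.03. An unadjusted limma p under 0.05 was found for 3 of the 17, against 17.9% of all genes. CMAS, which activates sialic acid, averaged 38.3 ± 2.16 TPM after (R)-GNE-140 and 30.8 ± 2.47 TPM in controls (log2 difference 0.31, limma adjusted p = 0.0627). NEU1, the lysosomal sialidase, averaged 62.2 ± 3.205 TPM after (R)-GNE-140 and 72.9 ± 2.004 TPM in controls (log2 difference -0.23, limma adjusted p = 0.0663). ST6GAL1, which adds alpha-2,6-linked sialic acid, averaged 35.7 ± 0.885 TPM after (R)-GNE-140 and 42.2 ± 2.67 TPM in controls (log2 difference -0.23, limma adjusted p = 0.0837). ST3GAL6, which adds alpha-2,3-linked sialic acid, was at a log2 difference of -0.10. CMAS and NEU1 passed under median-of-ratios scaling (limma adjusted p = 0.0336 and 0.0255) and under quantile normalization (0.0307 and 0.0360). CMAS, but not NEU1, also passed at a mean of at least 5 TPM (limma adjusted p = 0.0482) and without the 20 most abundant genes (0.0415). Calls over all genes also rose in these settings, from 329 to 440, 416, 352 and 375.

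LGALS9 is known as an interferon-induced gene in human cells, and a list of interferon-induced genes was counted beside it. Of 14 tested, 0 rose and 0 fell by limma over all genes, and 4 had an unadjusted limma p under 0.05, against 17.9% of all genes. The median log2 difference was 0.10, with 11 of 14 above 0 and 3 below, against 48.9% of all genes below 0. The groups did not overlap in 5 genes higher after (R)-GNE-140 and 1 lower, against 11.2% and 11.8% of all genes. IFI44L averaged 5.78 ± 1.005 TPM after (R)-GNE-140 and 3.96 ± 0.367 TPM in controls (log2 difference 0.44, limma adjusted p = 0.109). The antiviral enzyme gene OAS1 averaged 22.2 ± 1.27 TPM after (R)-GNE-140 and 17.2 ± 2.85 TPM in controls (log2 difference 0.36, limma adjusted p = 0.110), and passed without control replicate 3 (limma adjusted p = 0.0328). IFIT3 was at a log2 difference of 0.31 and the immunoproteasome subunit PSMB9 at 0.25. CXCL10 was listed at 0 in all 6 libraries.

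Collagens and other matrix proteins that the LGALS3BP product binds in human tissue were measured although LGALS3BP itself is not analysed here. Of 7 tested, 0 rose and 0 fell by limma over all genes, and the median log2 difference was -0.08. An unadjusted limma p under 0.05 was found for 4 of the 7, against 17.9% of all genes. COL5A2, FN1 and COL4A2 were at log2 differences of -0.21, -0.21 and -0.18, and COL5A1 was at 0.28, and none passed.

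**Figure D4:**
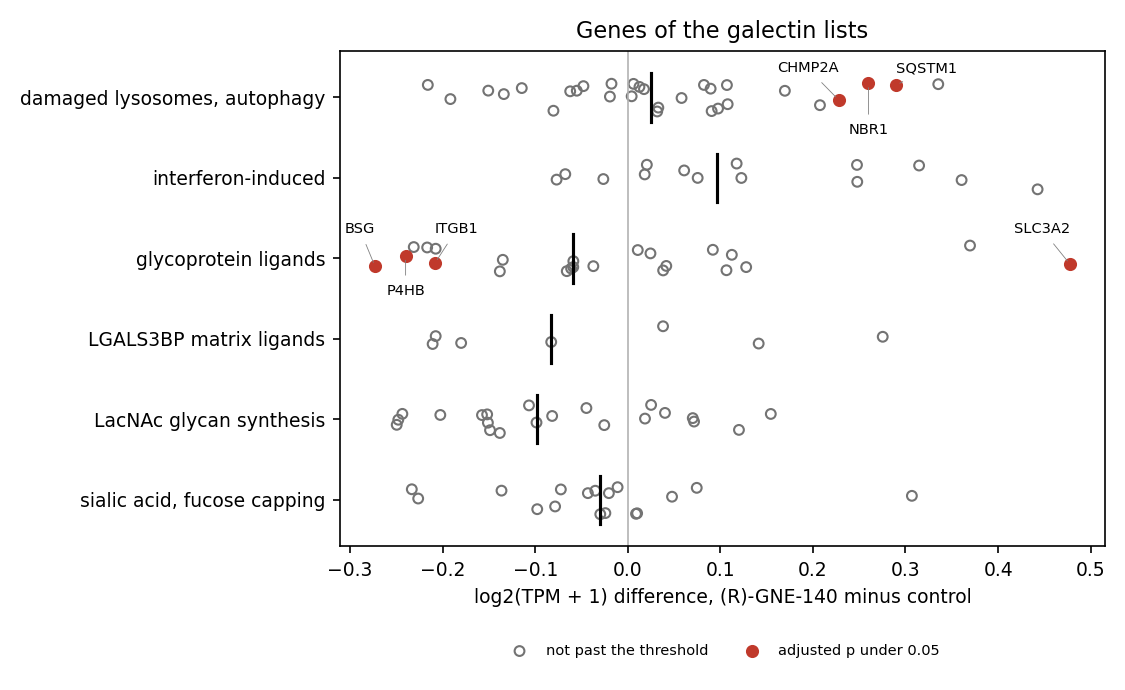
Difference in log2(TPM + 1), (R)-GNE-140 minus control, of each tested gene in 6 lists, with filled points for limma adjusted p under 0.05 and a vertical bar at each list's median. Filled points are SQSTM1, NBR1, CHMP2A and SLC3A2 on the right and BSG, P4HB and ITGB1 on the left.

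Every (R)-GNE-140 library had more genes at 1 TPM or more (10881 to 10970) than any control (10755 to 10850). The same held for genes above 0, at 13643 to 13861 after (R)-GNE-140 and 13379 to 13515 in controls. The cause of this difference was not tested. Endothelial markers fitted the label in part: PECAM1, at 304 to 334 TPM after (R)-GNE-140 and 335 to 363 TPM in controls, and 11 other markers had means above 1 TPM, while VWF was at 0.02 to 0.13 TPM in all libraries. The summed endothelial markers (13 of 14 with a row) were at 913 to 948 TPM after (R)-GNE-140 and 1023 to 1029 TPM in controls, and none of 12 tested was called by limma, with 2 at an unadjusted p under 0.05. Macrophages are a cell type rich in galectin-3. Their 12 markers summed to 8.71 to 11.8 TPM after (R)-GNE-140 and 8.15 to 11.97 TPM in controls. The overlap came from FCER1G alone, at 3.89 TPM in control replicate 3 and at 0 in the other libraries. Without FCER1G, an omission chosen after seeing the data, the other 11 markers summed to 8.71 to 11.8 TPM after (R)-GNE-140 and 8.08 to 8.31 TPM in controls. The largest part of these sums was CD14, at 5.65 to 6.40 TPM after (R)-GNE-140 and 4.18 to 4.81 TPM in controls. Of the 2 macrophage markers tested, CD14 was higher and CD68 lower, at means of 1.67 TPM after (R)-GNE-140 and 1.94 TPM in controls. Among the markers under the filter, AIF1, ITGAM, CD163, MSR1, LYZ, CSF1R and PTPRC had higher means after (R)-GNE-140, and FCER1G a lower one. The means of the higher ones were under 1 TPM in both groups, with overlapping libraries. MRC1 averaged 0.133 TPM in both groups. PTPRC and CSF1R stayed under 1 TPM in every library, and TYROBP was listed at 0. The 8 fibroblast markers summed to 5.99 to 7.96 TPM after (R)-GNE-140 and 4.10 to 5.14 TPM in controls, with COL3A1 at 0. Only 2 of them were tested, and both had an unadjusted limma p under 0.05 with 0 called. COL1A1 averaged 2.27 TPM after (R)-GNE-140 and 1.29 TPM in controls, and PDGFRA 3.35 and 2.44 TPM. The 4 epithelial markers with a row summed to at most 0.26 TPM in either group. The part of the endothelial, macrophage and fibroblast markers in the galectin differences was not tested.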

How the data were processed

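PolyA RNA was measured in 3 (R)-GNE-140 and 3 control libraries. The authors deposited TPM per gene, scaled to 1 total per library; the submitters' processing notes name STAR, RSEM and edgeR 3.42.0 without order or settings. No genome build is given in the sources used here, and the depth is unknown, so no counting interval is given. Samples were grouped by their titles. Genes with a mean of at least 1 TPM entered a limma 3.58.1 fit (R 4.3.3) of log2(TPM + 1) on group alone, with a variance trend, 2-sided tests and Benjamini-Hochberg adjustment over all 10874 genes at 0.05. Symbols shared by several rows (233 rows) were left out of lists, and 178 of 206 list and marker entries matched a row. The members and lists were chosen with earlier results of these data known. Named were all members, the called genes of each list with those of smallest p up to 4, and the 5 nearest genes of the 2 members with the largest difference; MGAT5, TRIM16, CXCL10 and single cell type markers were added after their values were seen. The fit was tested on simulated data. Alternatives covered pseudocount, filter, scaling, variance trend, replicate block and each library left out. Figures were drawn with matplotlib 3.10.9.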

Additional observations from a re-analysis of the deposited data

How the results depend on the processing

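Over all genes tested, 329 were called. Fewer were called without the filter on low values (168), without the variance trend (159) and with the replicate number as a block (163). With 1 library left out there were between 74 and 185. More were called under median-of-ratios scaling (440), under quantile normalization (416) and without the 20 most abundant genes (375). A filter at a mean of at least 5 TPM gave 352, log2(TPM + 0.1) gave 344 and log2(TPM + 5) gave 325. The LGALS3 log2 difference (1.01) ran from 0.82 to 1.13 with 1 library left out. That of LGALS9 ran from 0.62 to 0.95, was 1.21 on log2(TPM + 0.1) and 0.34 on log2(TPM + 5), and has no value at a mean of at least 5 TPM, where LGALS9 is filtered out. LGALS1 ran from -0.08 to 0.03 and LGALS8 from -0.04 to 0.02. Of the glycoprotein ligands (4 called), 1 was called without the filter, 1 without the variance trend and 2 with the replicate block, and 0 to 3 with 1 library left out. Of the damaged-lysosome genes (3 called), 0 were called without the filter and 0 without the variance trend, 1 with the replicate block, and 0 with any 1 library left out, but 4 at a mean of at least 5 TPM, under either scaling and without the 20 most abundant genes. Of the capping genes (0 called), 1 was called at a mean of at least 5 TPM, 2 under median-of-ratios scaling, 2 under quantile normalization and 1 without the 20 most abundant genes. Calls over all genes also rose in these same settings. Of the other galectins (0 called), 1 was called without the variance trend, and of the interferon-induced genes (0 called), 0 to 1 with 1 library left out. The cause of these shifts was not tested. The alternatives were followed for 37 of the tested genes named outside the family, with the identical pair counted once. Of their 553 values, 483 kept direction and call, 59 lost the call, 11 gained it and 0 turned sign. Most of the 37 were not called in the main fit and had no call to lose, so the 483 do not measure how firm the calls are. With all 6 libraries kept, SLC3A2 held its call in 9 of 9 alternatives, BSG in 7, and ITGB1 and P4HB in 6 each. Replicate numbers did not pair the libraries: deviations of same-numbered libraries correlated at 0.036, 0.009 and -0.098, and 1 of 6 libraries correlated best with its own number. Since the read depth is unknown, the values of LGALS9 and LGALS4, at a few TPM or less, carry no known counting error.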
